A study of Mus musculus with 16 samples.

Results

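The accessibility of 29 mouse genes of sterol and fatty acid synthesis was examined by ATAC-seq, in which a transposase inserts adapters into open DNA, among 21938 protein-coding genes of GENCODE M21. The members were chosen by name, as enzymes of the mevalonate, sterol and fatty acid routes and the regulators that control them. Earlier results of these data were known when they were chosen. Every peak within 1 kb of an annotated transcript start of a member counted as a promoter peak, and every peak in the gene body plus 10 kb on each side counted as a peak of its locus. The question addressed was whether serum withdrawal, in which growth medium is exchanged for a low-serum medium, changed the accessibility of these loci.

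Cells were C2C12 iMyoD1, a polyclonal population of the C2C12 mouse myoblast line that keeps its own Myod1 gene and carries doxycycline-inducible Halo-MyoD1 transgenes driven by the TRE3GS promoter. Only a part of the nuclei express the transgene after doxycycline. All 4 groups carried the transgene. GM no dox and GM +dox stayed in growth medium and received vehicle or doxycycline for 24 h, and DM no dox and DM +dox received the same for 24 h during serum starvation. Each group had 4 biological replicates. By the study's methods, growth medium held fetal bovine serum, and DM a lower share of horse serum with added insulin, transferrin and selenium. The seeding also differed by medium, at 75000 cells for GM and 300000 for DM. Serum withdrawal below stands for all these changes, so serum level, serum type, the added insulin supplement and cell density cannot be told apart. Replicate 1 of both DM groups, which the study's methods set aside as quality outliers, was left out of the main comparisons, which leaves 14 libraries.

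Cholesterol is built from acetyl-CoA through mevalonate, farnesyl diphosphate, squalene and lanosterol. When membrane sterol is low, SCAP carries the SREBP factors, encoded by Srebf1 and Srebf2, to the Golgi apparatus. There they are cleaved and released to the nucleus, where they bind sterol elements in the promoters of these genes together with NF-Y and Sp1. INSIG proteins hold SCAP back when sterol is plentiful, and the same factors drive fatty acid synthesis. Proliferating and fusing myoblasts need both lipid classes for membrane.

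The promoters that carry the sterol element are shown first, because SREBP is the known regulator of these genes. The RefSeq promoter table (GRCm38.p6, 250 bases before to 50 after a start) held 23 of the 29 members. Sqle, Fdps, Fdft1, Stard4, Scd1 and Scd2 had no entry. The SREBP element was searched as TCACNCCA, the NF-Y box as CCAAT, the E-box as CACGTG, the MyoD1 E-box as CAGCTG and the Sp1 box as GGGCGG, on both strands. In the stretches below, which run 5′ to 3′ on the gene's strand, capitals mark every such match, and neighbouring matches can run together.
Hmgcs1, chr13:119690101-119690350, plus strand, 250 bases directly before the RefSeq start: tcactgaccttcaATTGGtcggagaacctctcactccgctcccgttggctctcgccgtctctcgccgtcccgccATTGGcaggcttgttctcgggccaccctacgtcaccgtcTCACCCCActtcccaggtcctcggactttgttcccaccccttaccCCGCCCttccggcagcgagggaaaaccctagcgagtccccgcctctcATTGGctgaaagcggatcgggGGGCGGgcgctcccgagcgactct
Srebf2, chr15:82147019-82147180, plus strand, 162 bases before the first annotated start: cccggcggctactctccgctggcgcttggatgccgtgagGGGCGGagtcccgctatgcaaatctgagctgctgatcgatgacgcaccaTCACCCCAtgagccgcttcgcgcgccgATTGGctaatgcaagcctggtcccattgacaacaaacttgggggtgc
Msmo1, chr8:64733734-64733763, minus strand, 30 bases around the element: cactattcTCACTCCAtccgcgcagCCAAT
Sc5d, chr9:42264301-42264550, minus strand, 250 bases directly before the RefSeq start: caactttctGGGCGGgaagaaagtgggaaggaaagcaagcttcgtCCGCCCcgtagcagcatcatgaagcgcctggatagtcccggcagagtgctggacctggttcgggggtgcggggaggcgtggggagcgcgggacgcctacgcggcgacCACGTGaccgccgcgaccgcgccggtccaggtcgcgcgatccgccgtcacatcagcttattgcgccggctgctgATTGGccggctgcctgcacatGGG

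Hmgcs1, which encodes the synthase that commits acetyl units to the mevalonate route, held the element 137 bases before its RefSeq start, between NF-Y boxes whose first bases lay at -176 and -45. Srebf2, the gene of the factor that reads the element, held it at -162 with an NF-Y box at -135. In Msmo1, an oxidase that acts on methyl groups of the sterol ring after lanosterol demethylase, it lay at -177 with an NF-Y box at -160. Sc5d, a sterol desaturase, is shown because its promoter had the highest difference between media. It held no TCACNCCA, but had a CACGTG at -98 and an NF-Y box at -24, and the capitals at its end open an Sp1 box that crosses the start.

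A member with more than 1 RefSeq start counted if a motif lay at any of them. Across the 23 members with a sequence, the NF-Y box showed the widest gap in percentage points to promoters at large. It was found in 19 of 23 members (82.6%), against 42.1% of 16522 protein-coding promoters in the table and 46.0% of the 7133 whose gene was accessible often enough to be tested. Mvk, mevalonate kinase, held 5 of them. The SREBP element was present in 3 members (13.0%), against 4.66% of all promoters and 4.28% of the tested ones. The E-box was present in 5 (21.7%), against 9.18% and 12.3%, namely in Dhcr7, Sc5d, Hsd17b7, Insig1 and Scap. The Sp1 box was present in 19 members (82.6%), against 51.0% of all and 73.5% of tested promoters. The MyoD1 E-box was present in 3 of 23 members (13.0%), Idi1, Dhcr7 and Msmo1, against 17.7% and 17.3%. These shares describe letters in a window and were not tested.

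**Figure D1:**
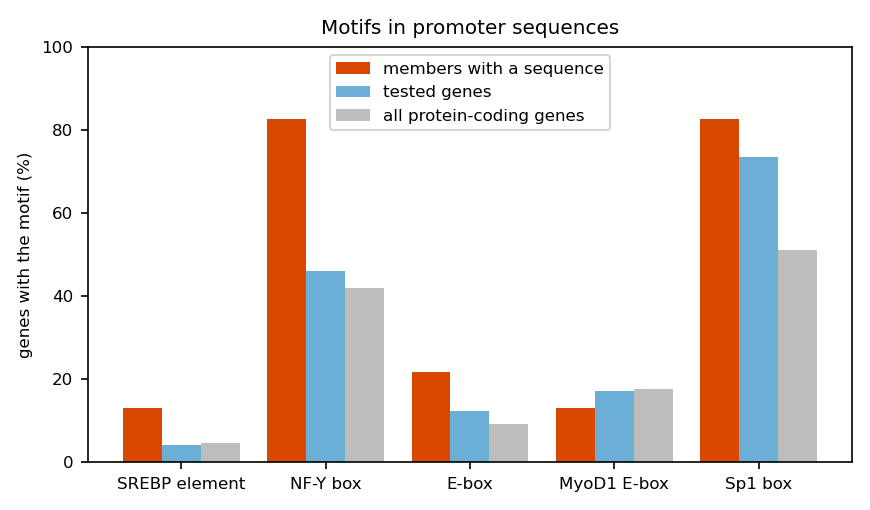
Share of genes (%) whose RefSeq promoter holds each of 5 motifs, for the 23 members with a sequence, the tested genes and all protein-coding genes in the table. The NF-Y box stood at 82.6% in members and 46.0% in tested genes, and the MyoD1 E-box at 13.0% and 17.3%.

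Depth could not be read from the peak lists, whose lengths ran from 14710 to 58587 peaks in the 14 kept libraries. Each list was therefore cut to its 14710 strongest peaks by the −log10 p of the peak caller, and a peak's place in it was written as a percentile, with 100 for the strongest and 0 for a gene with no peak among them. A gene's value is that of the strongest peak at its starts. As a check of the cell type, promoter peaks at marker genes were counted. In the equal-length lists 2 of 6 myoblast markers, Myod1 and Cdh15, and 2 of 6 adipocyte markers, Cebpa and Pparg, had a peak in any library, with Myod1 and Cebpa in all 14, and none of 6 myotube markers and 4 markers of other cells had one. In the whole lists all 6 myoblast markers had a peak in at least 1 library, as did Ckm of the myotube markers, Cebpa, Pparg and Plin1 of the adipocyte markers and Pecam1 of the others. The remaining markers, Myog, Mymk, Actc1, Tnnt2, Myh3, Adipoq, Fabp4, Lpl, Ptprc, Epcam and Alb, had none. Promoter peaks at these markers therefore do not tell myoblasts from adipocytes here. Myod1 reads can come from the transgene as well as the gene, which was not tested.

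Promoters of the pathway were open in all groups. Of the 29 members, 23 had a promoter peak in every one of the 14 equal-length lists (79.3% of the members), against 18.7% of all protein-coding genes. Of the others, Sc5d, Scap and Tm7sf2 were listed in part of the libraries, and Pmvk, Stard4 and Elovl6 in none. In the whole deposited lists Pmvk had a promoter peak in 10 libraries and Elovl6 in 2, while Stard4, a sterol carrier, had none in any. The share of members with a promoter peak was 86.2% ± 2.82 (SD, n = 4) in both GM groups. It was 86.2% ± 0 (SD, n = 3) for DM without dox, where each library held 25 of the 29, and 87.4% ± 3.98 (SD, n = 3) for DM with dox. Over all protein-coding genes the shares were 33.0% ± 3.26 and 32.6% ± 4.04 in GM without and with dox, and 35.0% ± 2.52 and 35.7% ± 3.65 in DM. DM therefore differed from GM by 0 percentage points of members without dox and by 1.15 with dox, less than the spread between libraries.

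**Figure D2:**
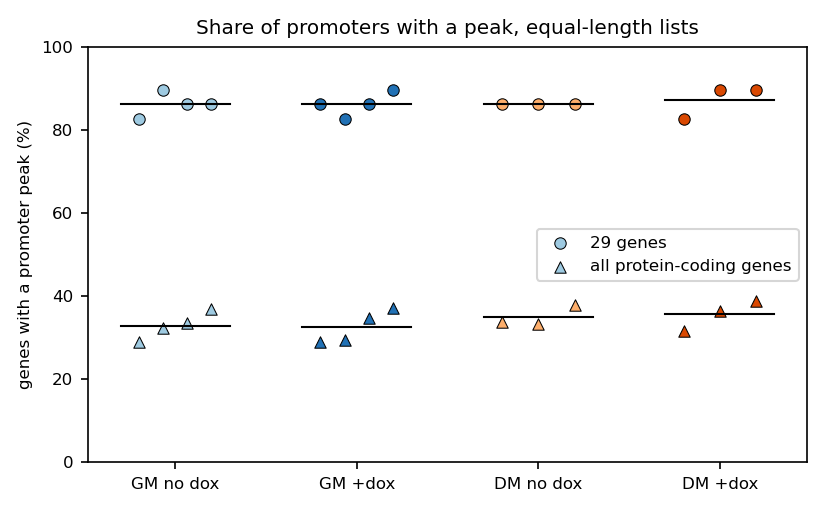
Share of genes (%) with a promoter peak in equal-length lists, by group. Circles are the 29 members and triangles all protein-coding genes, 1 point per library, and lines are group means. Members sat between 82.8% and 89.7% in every group, all protein-coding genes between 28.9% and 38.9%.

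The promoter peaks sat close to the starts, which the rule of 1 kb from any annotated start favours. Over the 28 members with a promoter peak in any kept list, the median summit lay 68.8 bases before the nearest annotated start, and in 25 of them within 200 bases of it. No share over all genes is given beside this count. The distance from the summit to the SREBP element differed between the 3 promoters that hold one. For Srebf2 the summit fell inside the 8 bases of the element (chr15:82147107-82147114) in 8 of 14 libraries and within 25 bases of it in 10. For Hmgcs1 (element at chr13:119690214-119690221) the median distance was 13 bases, with 9 of 14 libraries within 25. For Msmo1 (chr8:64733748-64733755) it was 62 bases, with 3 of 14 within 25. For Acaca, the acetyl-CoA carboxylase that forms malonyl-CoA, the strongest peak (chr11:84179226-84180423) was not at the 5′ end of the gene but 49.9 kb into it, at an internal start. For Srebf1 it was likewise internal, 12.1 kb from the 5′ end (chr11:60210334-60210765). Dhcr7, the last reductase of the route, had 2 promoter regions with a peak in all 14 equal-length lists, at -0.171 and 6.99 kb from its 5′ end. For 6 members another protein-coding gene starts within 1 kb of one of their starts, so a peak there belongs to both. These were Tada2a at Acaca (72 bases), Cetn2 at Nsdhl (146), Mmab at Mvk (209), Gm43738 at Fdps (216), Nadsyn1 at Dhcr7 (296) and Vps51 at Tm7sf2 (698). The region shared with Tada2a (chr11:84129174-84129921) averaged 26.3 in GM no dox and is not the strongest, internal peak of Acaca. For Dhcr7 the strongest peak lay at either of its 2 regions, depending on the library.

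As a group the promoters ranked high within the lists. The median over the 26 members tested (those with a promoter peak in at least 3 of 14 equal-length lists) of their mean percentile was 82.3, against 46.7 over all 8957 genes tested. 15 of the 26 (57.7%) averaged at least 80, against 18.9% of tested genes, and 5 (19.2%) at least 95, against 3.86%. Those 5 were Hmgcs1, Sqle, Fdft1, Msmo1 and Acaca, while Scap, Tm7sf2 and Nsdhl were the weakest of those tested.

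In the mevalonate steps, Hmgcs1 (chr13:119690379-119708260, plus strand) had the highest mean rank by −log10 p, though not in every library the highest fold enrichment. Its percentiles were 98.4, 99.0, 97.9 and 99.6 in GM no dox, 96.4, 99.4, 99.7 and 99.2 in GM +dox, 99.1, 98.9 and 99.6 in DM no dox, and 99.1, 99.0 and 98.8 in DM +dox. In the list of GM +dox replicate 3 it was peak 42 of the genome. Its groups overlapped fully, and DM minus GM, averaged over both dox arms, was 0.37 points ± 0.98 (SE, limma adjusted p = 0.87). Even the left-out DM no dox replicate 1, with 1287 peaks in all, held the Hmgcs1 peak, at place 181.

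Fdps (chr3:89093588-89101959, minus strand), the synthase of farnesyl diphosphate, had percentiles of 73.0, 94.9, 89.8 and 95.8 in GM no dox and 94.0, 88.5, 96.3 and 94.4 in GM +dox. It had 96.7, 97.4 and 98.2 in DM no dox and 95.04, 99.2 and 98.0 in DM +dox. The DM values stood at the top of the range, with GM no dox replicate 4 and GM +dox replicate 3 above the lowest of them. The averaged difference was 6.60 points ± 2.98 (unadjusted p = 0.042, limma adjusted p = 0.36), which did not pass.

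Idi1, the isomerase that makes the reactive isoprene unit, ranked at 75.9 ± 13.4 (SD, n = 4) without and 81.6 ± 10.3 (n = 4) with dox in GM, and at 89.7 ± 5.09 (n = 3) without and 87.4 ± 5.501 (n = 3) with dox in DM. Its difference of 9.78 points ± 4.92 did not pass (limma adjusted p = 0.40). Acat2, the thiolase of the first step, ranked between 81.2 and 96.9 over the 14 libraries, Mvk between 76.3 and 94.6, and Mvd, the decarboxylase, between 54.9 and 93.4. Their differences were -1.25 ± 2.65, 1.79 ± 3.11 and 2.31 ± 5.56 points. Pmvk, phosphomevalonate kinase, was the weak promoter of the branch, and its peaks stood at place 15757 or lower in the 10 lists that had one.

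In the squalene and sterol steps, levels ranged from the top of the lists to absence. Sqle (chr15:59315077-59331192, plus strand), squalene epoxidase, a rate-limiting step, had percentiles of 90.6, 97.9, 97.7 and 99.5 in GM no dox, 93.8, 96.5, 97.6 and 99.0 in GM +dox, 98.6, 89.97 and 99.3 in DM no dox, and 96.6, 98.0 and 98.8 in DM +dox. The groups overlapped, with a difference of 0.30 points ± 1.82 (limma adjusted p = 0.94). Fdft1, squalene synthase, ranked between 84.5 and 98.6 and Msmo1 between 95.1 and 99.5, with differences of 2.13 ± 1.83 and -0.49 ± 1.13 points. Lss, lanosterol synthase, ranked at 77.4 ± 11.9, 81.5 ± 13.5, 88.1 ± 8.002 and 86.9 ± 17.7 in the same order, Hsd17b7 at 86.2 ± 11.1, 91.8 ± 6.31, 91.8 ± 4.47 and 94.0 ± 4.42, and Dhcr7 between 64.3 and 89.0. Cyp51, lanosterol demethylase, stood at 50.2 ± 19.2 in GM no dox and 71.4 ± 7.03, 71.0 ± 16.9 and 63.6 ± 11.8 in the other groups.

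Sc5d (chr9:42251595-42264256, minus strand) had the highest difference of the members. Its percentiles were 0, 29.97, 29.5 and 59.6 in GM no dox, 16.4, 26.5, 42.0 and 16.3 in GM +dox, 18.4, 64.8 and 63.8 in DM no dox, and 48.5, 66.7 and 69.1 in DM +dox. In 4 of 6 DM libraries it stood above every GM library, and DM no dox replicate 2, at 18.4, stood among the GM values. The difference was 27.7 points ± 11.1 (unadjusted p = 0.025, limma adjusted p = 0.32), 19.2 ± 15.8 without dox and 36.1 ± 15.8 with dox. Neither arm passed, and the difference between the arms did not pass either. Tm7sf2, a sterol reductase, had the lowest difference. It was absent from the 3 equal-length lists of DM no dox and reached 69.0 in GM no dox replicate 4, 49.3 in GM +dox replicate 3 and 40.8 in DM +dox replicate 4. Its difference of -14.4 points ± 11.2 did not pass (limma adjusted p = 0.55). Nsdhl and Ebp, both on the X chromosome, ranked between 3.202 and 54.7 and between 10.8 and 74.1, with differences of -2.83 ± 9.57 and 1.04 ± 12.1 points.

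Among the regulators, the 2 SREBP genes differed in rank by −log10 p. Srebf2, the sterol regulator, had percentiles of 74.7, 84.7, 95.1 and 97.7 in GM no dox, 71.9, 87.2, 95.5 and 95.3 in GM +dox, 89.7, 89.5 and 95.7 in DM no dox, and 92.6, 97.7 and 98.3 in DM +dox. Srebf1, which favours fatty acid genes, had 64.5, 67.5, 36.1 and 62.6, then 59.2, 69.7, 49.1 and 60.1, then 77.8, 50.9 and 49.99, then 79.1, 79.1 and 61.4 in the same order. The Srebf1 peak was the one at its internal start, 12.1 kb from the 5′ end. By this rank the Srebf2 peak stood above this Srebf1 peak in 14 of 14 libraries, by 10.2 to 58.9 points (median 26.8). By fold enrichment the order varied between libraries. In GM no dox replicate 2 it was 18.7 for Srebf1 and 15.2 for Srebf2, and in DM +dox replicate 4 it was 15.6 and 17.1. The differences between media were 6.15 points ± 4.08 for Srebf2 and 7.78 ± 8.07 for Srebf1, and neither passed.

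Insig1, the sterol sensor that retains SCAP and is itself a target of the SREBP factors, had 66.6, 35.3, 71.7 and 77.7 in GM no dox, 7.48, 56.1, 54.9 and 71.9 in GM +dox, 81.1, 64.4 and 75.2 in DM no dox, and 61.1, 75.9 and 61.1 in DM +dox. GM +dox replicate 1 was the lowest by a wide margin. The difference was 14.6 points ± 10.3 (limma adjusted p = 0.52). Scap had the weakest tested promoter of the set, absent from 6 of 14 equal-length lists and at most at 31.3.

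In the fatty acid steps, Acaca ranked between 87.2 and 98.2 and Acly, the lyase that supplies cytosolic acetyl-CoA, between 66.3 and 98.0, with differences of 0.72 ± 1.83 and -2.28 ± 5.803 points. Fasn, fatty acid synthase, had 48.2, 65.6, 89.5 and 65.0 in GM no dox, 18.3, 61.5, 85.0 and 83.1 in GM +dox, 60.9, 70.7 and 72.9 in DM no dox, and 70.9, 85.3 and 68.7 in DM +dox. The DM values lay inside the GM range, with a difference of 7.03 points ± 10.1 (limma adjusted p = 0.74). The desaturases Scd1 and Scd2 had lower means in DM, 75.2 ± 25.9 and 76.0 ± 19.6 against 85.2 ± 15.5 and 87.4 ± 6.06 for Scd1, and 67.1 ± 16.1 and 73.9 ± 2.27 against 72.5 ± 27.0 and 88.1 ± 5.86 for Scd2. The differences of -10.7 points ± 7.94 and -9.82 ± 8.13 did not pass (limma adjusted p = 0.53 and 0.56).

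**Figure D3:**
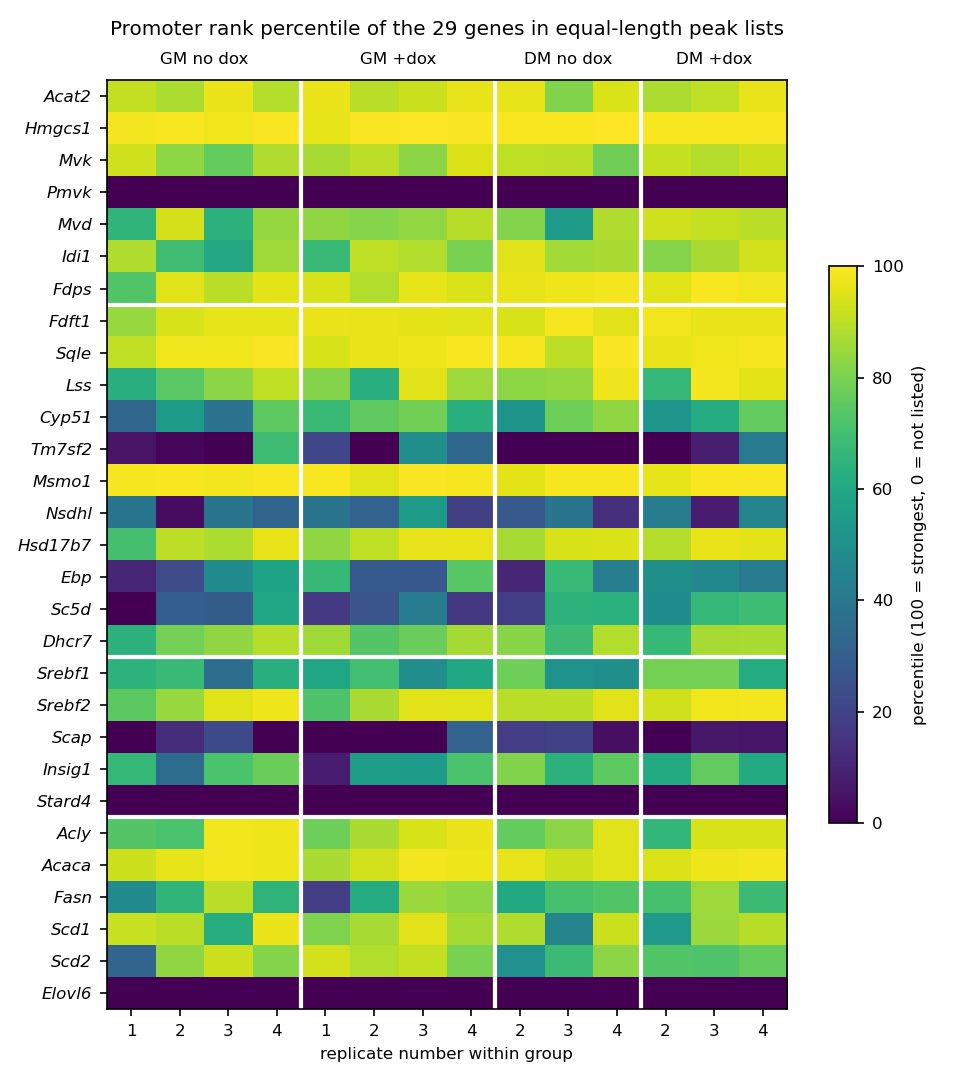
Promoter percentile of each of the 29 genes (rows, by role: mevalonate steps, squalene and sterol steps, regulators and transport, fatty acid steps) in the equal-length list of each of 14 libraries (columns, by group). Hmgcs1, Msmo1, Sqle, Fdft1 and Acaca are bright in all columns, while Pmvk, Stard4 and Elovl6 are at 0 throughout.

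No member passed the test for serum withdrawal. Averaged over both dox arms, 0 of 26 members were called at an adjusted p under 0.05 (limma with Benjamini-Hochberg adjustment over 8957 genes), beside a background of 26 genes called (0.290%). At an unadjusted p under 0.05 stood 2 members, Fdps and Sc5d (7.69%), against 13.4% of all genes tested. The members' median difference was 1.41 points, with 19 of 26 above 0. The median over all genes tested was 5.37 points with 74.4% above 0, so promoters as a whole stood higher in the DM lists. A percentile cannot rise past that of the strongest peak, and members stood closer to this limit. Their median mean percentile was 82.3, against 46.7 over all genes tested, which left members less room to rise. Whether members responded less than other promoters of similar percentile was not tested. With replicate numbers as a block the members' median was -0.079 points, with 11 of 26 above 0. When promoters were ranked only against each other, which brought the median of all genes to 0.45, 10 members were above 0 and 16 below, with a median of -1.07. Among roles, the medians were 2.05 points for the 6 mevalonate genes tested, 1.04 for the 11 squalene and sterol genes, 6.97 for the 4 regulators and -2.28 for the 5 fatty acid genes. The SE of a member's difference ranged from 0.98 to 12.1 points, and the absence of calls does not show that the media acted alike.

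Each dox arm gave the same count. Without dox 0 of 26 members were called (background 0.00%), and 1 (3.85%) had an unadjusted p under 0.05, against 7.92% of all genes tested. With dox likewise 0 were called (background 0.00%), and 1 member (3.85%) had such a p, against 6.39% of all genes tested. With replicate numbers as a block, serum withdrawal with dox called 4 genes, none of them a member. Dox called no member in GM or in DM (background 0.00% in each), with no member at an unadjusted p under 0.05 against 294 and 252 of 8957 genes. No interaction was called for any member or gene (background 0.00%, 161 genes at an unadjusted p under 0.05). The comparisons of media share libraries with those of dox.

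**Figure D4:**
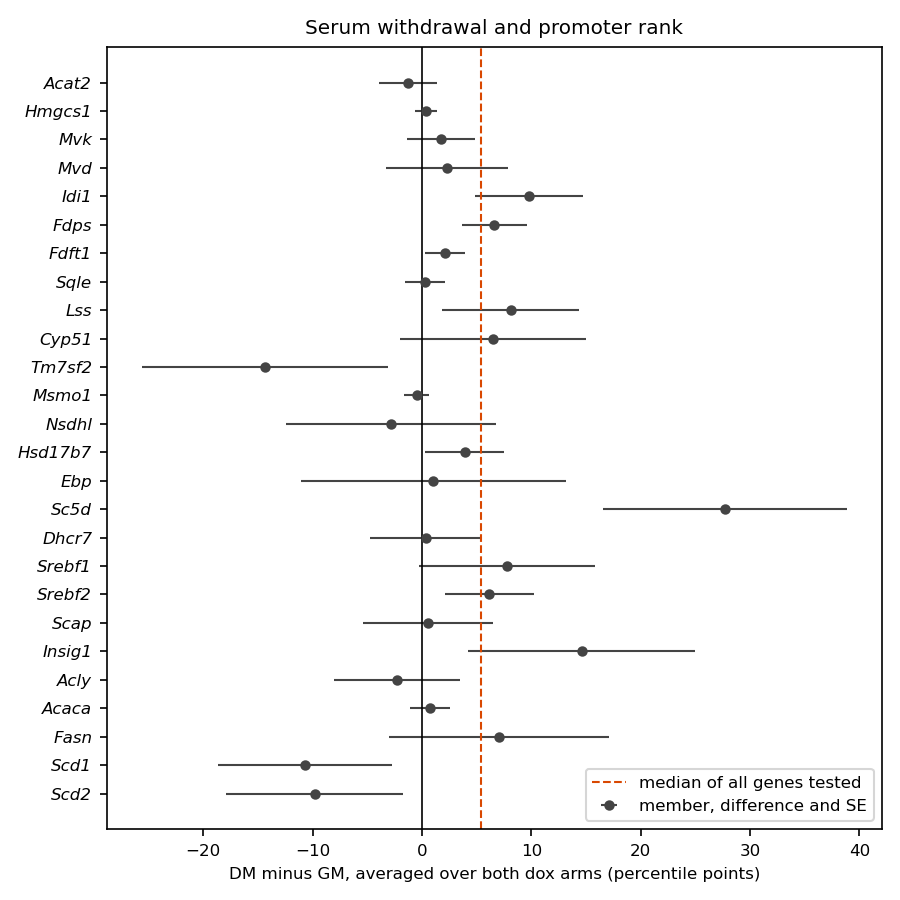
Difference in promoter percentile, DM minus GM averaged over both dox arms (points, error bars SE from limma, 8 GM and 6 DM libraries), for the 26 members tested. The dashed line is the median over all 8957 genes tested, 5.37 points. Sc5d stands highest at 27.7 points and Tm7sf2 lowest at -14.4.

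The other genes of the pathway were a list of 22 that adds the remaining sterol enzymes, SREBP processing, desaturases and sterol efflux. Of them 17 were tested and 0 were called, beside a background of 0.290%. Their median difference was 5.24 points, against 1.41 for the members and 5.37 over all genes tested. An unadjusted limma p under 0.05 was seen in 11.8% of them, against 7.69% of members and 13.4% of all genes tested. The lowest p was that of Fads2, a desaturase of polyunsaturated fatty acids, whose mean percentile was 81.4 ± 2.27 (SD, n = 4) without and 81.0 ± 8.82 (n = 4) with dox in GM, and 44.8 ± 23.2 (n = 3) without and 66.9 ± 11.2 (n = 3) with dox in DM. Its difference was -25.4 points ± 7.09 (limma adjusted p = 0.17). Acacb, the mitochondrial carboxylase, had the highest difference, 30.4 points ± 12.5 (limma adjusted p = 0.32).

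Beyond the promoters, the 29 loci held 53 regions in the union of the equal-length lists, 32 at promoters and 21 distal, and 12 members had a distal one. Of 47 regions tested, 0 were called for serum withdrawal in the fit over 19695 regions, beside a background of 4.76% (401 higher and 537 lower in DM). 6 of the 47 (12.8%) had an unadjusted p under 0.05, against 21.5% of all regions. Of these, 4 were distal. They are described next and were chosen after their values were seen. Those in the Sqle and Pmvk loci were at 0 in all GM equal-length lists and entered the fit through DM libraries alone, so they are given as a description, and a call of either is no evidence of a difference. Other settings called these regions alone among those of the members, the Sqle region with all deposited peaks (background 2.36%) and without DM no dox replicate 2, and the Pmvk region without DM +dox replicate 2.

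The clearest was a region 23.6 kb from the Sqle start, inside an intron of the neighbouring gene Washc5 (chr15:59338562-59338830, GRCm38). In the whole deposited lists it had no peak in any of the 8 GM libraries and a peak in each of the 6 DM libraries. The GM lists held 14710 to 58587 peaks and the DM lists 23690 to 51340. A change in all cells and one in a part of the cells cannot be told apart in these bulk libraries. Such presence in no GM and all DM lists was seen in 30 of 26213 union regions (0.114%). Its percentile within the whole list was 23.4, 73.7 and 80.4 in DM no dox and 34.4, 60.4 and 77.1 in DM +dox, and its fold enrichment over local background ran from 6.55 to 15.4. In the equal-length lists it remained in 3 DM libraries, at 56.8 and 45.8 in DM no dox and 22.8 in DM +dox. Neither of the left-out DM libraries, with lists of 1287 and 14236 peaks, held it. The summits of the 6 libraries fell between chr15:59338690 and chr15:59338732, the stretch of 43 bases in capitals below, read from the reference on the plus strand. None of the 5 motifs occurs in the 269 bases.
Region 23.6 kb from Sqle: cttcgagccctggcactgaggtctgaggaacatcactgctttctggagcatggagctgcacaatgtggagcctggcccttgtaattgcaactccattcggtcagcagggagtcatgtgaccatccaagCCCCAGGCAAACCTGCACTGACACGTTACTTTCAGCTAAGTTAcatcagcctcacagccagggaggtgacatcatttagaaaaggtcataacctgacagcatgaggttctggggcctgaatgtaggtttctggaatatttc

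At the far end of Pmvk, 13.9 kb from its start in an intron (chr3:89468273-89468665), a region stood among the strongest 14710 peaks in none of the 8 GM libraries. It did so in 3 of 3 DM no dox libraries, at 17.1, 3.00 and 15.7, and in 2 of 3 DM +dox libraries, at 35.9 and 12.6. The region was no DM peak by presence, since 7 of the 8 GM libraries held it further down the list, as did all 6 DM libraries.

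Within Elovl6, which elongates palmitate, a region 56.6 kb from the start (chr3:129588679-129589127, intron) was listed at 0, 22.9, 35.5 and 42.9 in GM no dox, 34.4, 0, 0 and 0 in GM +dox, 63.3, 9.80 and 50.2 in DM no dox, and 33.8, 43.0 and 40.3 in DM +dox. The difference was 23.1 points ± 10.8 (limma adjusted p = 0.23). Another intronic region of Elovl6, 4.05 kb from the start, had a peak in all 14 equal-length lists, although the promoter itself had none in those lists.

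Inside Msmo1, 7.43 kb from the start (chr8:64726021-64726877, in an annotated exon of a transcript of the gene), a region was lower in DM. It ranked at 93.4, 87.9, 79.97 and 76.9 in GM no dox, 80.6, 93.8, 53.3 and 62.4 in GM +dox, 87.9, 70.7 and 35.4 in DM no dox, and 58.4, 39.5 and 42.3 in DM +dox. The ranges overlapped, and the difference of -22.8 points ± 8.38 did not pass (limma adjusted p = 0.13), while the promoter of the same gene differed by -0.49 points.

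**Figure D5:**
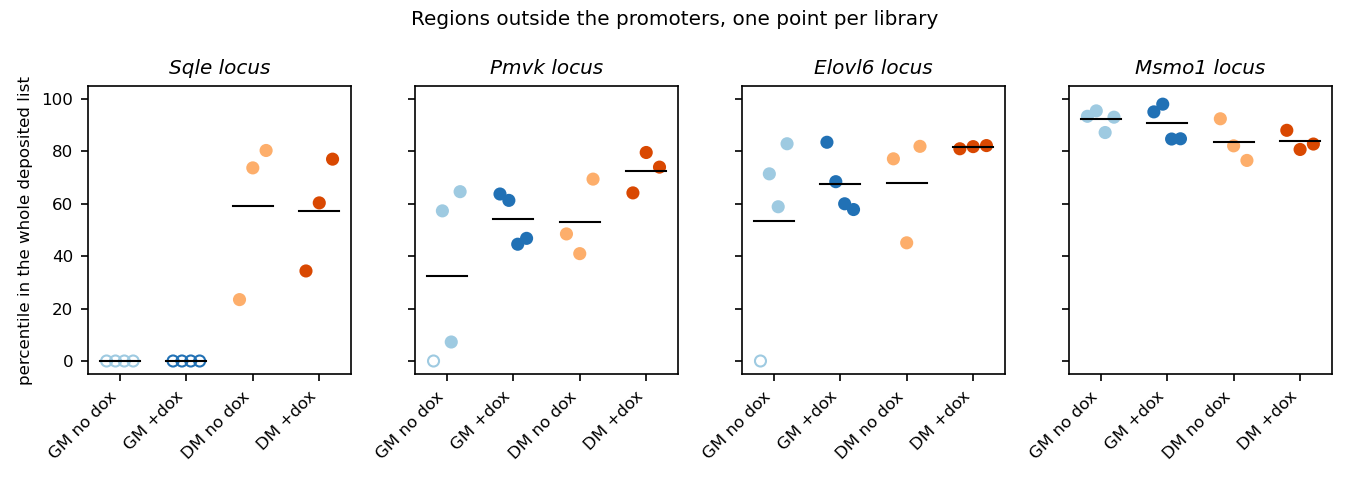
Percentile of 4 distal regions in the whole deposited list of each library (y axis, 100 = strongest), by group, with lines at group means. Filled points are libraries with a peak and open points at 0 are libraries without. The region in the Sqle locus is open in all 8 GM libraries and filled in all 6 DM libraries, and the other 3 are filled in nearly all.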

How the data were processed

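ATAC-seq libraries of C2C12 iMyoD1 cells (16 libraries, 4 groups) were processed by the authors with nf-core/atacseq 2.1.2 on mm10, with blacklisted regions removed and narrow peaks called by MACS2 in each library separately. The deposited lists give for each peak a score, a fold enrichment (ratio), and the −log10 p and −log10 q, and hold no read counts per region. The lowest −log10 q was 1.30.

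Lists were cut to equal length (14710) by −log10 p, since list length moves with depth and enrichment, and peaks were written as percentiles. Ranks show order within a list, not absolute signal. Gene and region values were fitted with limma 3.58.1 (R 4.3.3, trended variance, 4 group means, 14 libraries, 10 residual degrees of freedom) and adjusted over all features with a peak in at least 3 libraries, threshold 0.05. The fit was tested on simulated data. No peak ran past a chromosome end of GRCm38 and no lists were identical. Members and lists were chosen with earlier results of these data known. Named genes were those past the threshold for serum withdrawal, the 6 members with the largest averaged difference, and Hmgcs1, Sqle, Fasn, Srebf1, Srebf2 and Insig1. Fdps and the distal regions were added after their values were seen. Deviations of same-numbered libraries correlated at over 0.1 in every pair for serum withdrawal with dox (0.197 to 0.498) and dox in GM (0.109 to 0.308), a pairing read from the data alone, but not for serum withdrawal without dox (lowest 0.0674) or dox in DM (lowest 0.0781). P-values measure the spread between these cultures.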

Additional observations from a re-analysis of the deposited data

Results flagged for a closer look

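In groups of 4 libraries, a library was marked when its gap to the nearest other exceeded Dixon's limit. Of 36 groups of values examined, 5 were marked, where chance gives about 1 in 20 for values without ties. In the groups of the Elovl6 region and of the share of members the other values were tied, so any differing value was marked. Hmgcs1 in GM +dox had one library at 96.4, with the next at 99.2. Srebf1 in GM no dox had one at 36.1, with the next at 62.6. Tm7sf2 in GM no dox had one at 69.0, with the next at 5.18. The distal region of Elovl6 in GM +dox had one at 34.4 and the others at 0. The share of members with a promoter peak among all deposited peaks in GM +dox was 96.6% in one library and 93.1% in the others, a difference of 1 gene.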

How the results depend on the processing

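No member was called in any of the promoter comparisons under any setting run, with lowest adjusted p between 0.19 and 0.92 for averaged serum withdrawal. Counts over all genes moved more. The 26 calls for averaged serum withdrawal became 45 with promoters ranked against each other, 0 by fold enrichment, 7 with all deposited peaks, 15 with genes seen in at least 1 library, 9 at the 5′ end only and 11 with all 16 libraries, and ranged from 0 to 54 with 1 library left out. Serum withdrawal without dox gave 1 call by promoter order and 0 to 4 with 1 library left out. With dox it gave 8 with all deposited peaks, 3 with genes seen in at least 1 library and 0 to 16 with 1 left out. Dox in DM gave 1, 5 and 1 (promoter order, all deposited peaks, at least 1 library) and 0 to 4 with 1 left out, dox in GM 1 and the interaction 1 with all deposited peaks, and the interaction 0 to 1 with 1 left out. The region count of 938 became 128 by fold enrichment, 615 with all deposited peaks and 521 with all 16 libraries, and 505 to 1158 with 1 left out. The causes were not tested.

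With the replicate block, which uses the pairing of numbers, serum withdrawal with dox gave 4 calls in place of 0, none of them a member, and it changed no member's call. Under the block the members' median difference turned from 1.41 to -0.079 points, and the differences of Hmgcs1, Sqle and Fasn turned to -0.068, -1.16 and -3.39 points.

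With 1 library left out, the members' median difference ran from 0.36 points (without GM no dox replicate 1) to 2.95 (without GM +dox replicate 4). It moved by over 1.5 times also without DM no dox replicate 2 (0.69), DM +dox replicate 3 (2.27) and GM no dox replicate 4 (2.51).

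With all 16 libraries, which bring in the list of 1287 peaks, the members' share in DM minus GM without dox fell to -18.1 percentage points and the members' median difference to -7.90 points. Hmgcs1, Sqle, Fdps, Idi1, Srebf2 and Fasn turned to -3.78, -0.57, -8.11, -6.14, -6.46 and -0.80. By promoter order Hmgcs1, Sqle and Fasn turned to -0.0042, -1.09 and -1.47, and by fold enrichment Hmgcs1, Sqle, Insig1 and Fasn to -3.39, -9.85, -0.58 and -6.81. With 1 library left out, Hmgcs1 went from -0.0077 to 0.54 and Sqle from -0.67 to 1.80 and Fasn from -0.25 (without GM +dox replicate 1) to 10.9.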
